A study of Mus musculus with 3 samples.

Results

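*Zeb1*, *Zeb2*, *Snai1*, *Snai2* and *Twist1* encode the transcription factors best known for driving epithelial-mesenchymal transition (EMT), and they were followed across the cell classes of the mouse ovary. They are 5 of the 24958 genes in a deposited single-cell RNA-seq table, and each was found there by its symbol. *Zeb2* was picked because its level in granulosa cells (GCs) is high in the cells of 1 barcode ending only, so that difference is described here without a test, and the other 4 genes were added as its relatives.

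The labels name 3 libraries of mouse ovary made on the 10x Genomics platform, collected 0, 1 or 6 h from the injection of hCG, human chorionic gonadotropin, which stands in for the LH surge before ovulation, with 1 library per time point. The study's methods describe Kunming mice aged 21 days that had received PMSG, a gonadotropin with FSH activity, 48 h before the ovaries were taken. That description matches the library at 0 h and is not stated for the other libraries, and no source used here gives the number of animals behind a library. The table holds 31776 cells whose barcodes end in 1, 2 or 3, and since no source says which ending belongs to which library, the endings are called barcode sets 1, 2 and 3 and carry no time point.

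The ZEB and Snail proteins are zinc finger repressors that bind E-boxes with the core CACCTG, among others in genes of the epithelial junction such as the cadherin gene *Cdh1*. *Twist1* is a basic helix-loop-helix (bHLH) factor that binds E-boxes as a dimer with the E proteins. In the ovary the GCs form an epithelium inside the basement membrane of the follicle, the theca, stroma and smooth muscle outside it are mesenchymal, and *Zeb2* is also known from macrophages, where it maintains the identity of the cell.

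*Zeb2* lies on chromosome 2 of mouse build GRCm38 from 44983632 to 45117395 on the minus strand. An annotated antisense gene, *Zeb2os*, lies within it from 45110707 to 45114087 on the plus strand. The RefSeq table of promoters holds 4 starts for *Zeb2*, 1 for *Snai1* and 1 for *Twist1* (build GRCm38.p6, 250 bases before to 50 after each start). *Snai2* and *Cdh1* had no entry. No window of *Zeb1* was searched, so its promoter is not described. The 250 bases before the *Zeb2* start that lies nearest to the annotated end of the gene, chr2:45117443-45117692 on the minus strand, are shown because *Zeb2* is the member most of the results are about. Capitals would mark a match to CACCTG, to the cAMP response element TGACGTCA or its core TGACG, or to the AP-1 element TGACTCA, each searched on both strands, and the stretch holds none.
Zeb2 promoter: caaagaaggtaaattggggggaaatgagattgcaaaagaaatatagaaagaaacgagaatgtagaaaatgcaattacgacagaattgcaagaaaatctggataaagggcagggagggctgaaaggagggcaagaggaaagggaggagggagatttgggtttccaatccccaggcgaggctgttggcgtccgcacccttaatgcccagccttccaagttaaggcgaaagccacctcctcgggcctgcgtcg

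The *Zeb2* window that ends at 45110527 held TGACTCA at 189 and 132 bases before its start, and 2 further windows, which overlap, held the same single TGACG. Of all 32851 windows, 20.2% held CACCTG, 1.79% TGACGTCA, 5.20% TGACTCA and 20.8% TGACG, and every TGACGTCA also counts as a TGACG. No *Zeb2* or *Twist1* window held the E-box, whereas that of *Snai1* did, 126 bases before the start. Of 23 epithelial genes that ZEB and Snail factors are known to repress, 17 had a window and 12 of these held the E-box, beside 22.6% of the 27025 genes in the table. E-boxes of *Snai1*, of the adhesion gene *Epcam* and of the tight junction gene *Ocln* are shown as examples, in capitals within 30 bases. The bases are on the strand of the gene, and *Epcam* and *Ocln* also held matches that are not shown. A match is a description of the letters and not a measured binding site.
Snai1, chr2:167538057-167538086, plus strand: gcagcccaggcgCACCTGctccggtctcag
Epcam, chr17:87635780-87635809, plus strand: gccagtagggccCACCTGctggaggaccgg
Ocln, chr13:100552549-100552578, minus strand: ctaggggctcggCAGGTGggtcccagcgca

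Cells were clustered within each barcode set, with the 5 genes and the genes of the lists counted below left out. Other genes named here, such as *Cyp19a1* and *Cebpa*, were not among those left out. Clusters were named from marker genes, as "X-like". GC-like clusters held 4297, 4749 and 5130 cells in sets 1, 2 and 3. Endothelial-like, stroma-like, theca-like, myeloid-like, luteal-like and smooth muscle-like clusters also reached 50 cells in every set. A level is the number of transcripts of a gene, counted by unique molecular identifier (UMI), per 10000 UMIs summed over a group of cells, and levels are compared between groups of cells for 1 gene, never between genes, since transcript length was not taken into account. Intervals are exact 95% intervals for counting error alone. With 1 library per time point there are no replicates, so no spread between animals is known and no test was possible, and a p-value is given nowhere. A ratio is described as beyond counting error when its interval leaves out 1.

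The sets had similar depth, with medians of 6093, 6352 and 6524 UMIs per cell in sets 1, 2 and 3, and 112 barcode sequences occurred in more than 1 set. GC-like clusters of sets 1 and 2 included antral mural-like clusters, named from *Nppc*, *Lhcgr*, *Cyp19a1*, *Mro* and *Nap1l5*, and set 3 had none. In set 3 *Cyp19a1* was at most 0.264 and *Lhcgr* at most 0.470 in a GC-like cluster, below the level of 0.5 that a marker needed. The lack of the name there does not show that such cells were absent. In set 3, 3026 of the GC-like cells had no subtype, of which 2080 formed a cluster led by *Npy*, *Lyve1* and *Rnf180* in which *Inha*, a subunit gene of inhibin, was at 45.8 UMIs per 10000. Clusters without a GC marker among their 10 leading genes occurred in every set, and in set 2 they were 6 of the 9 GC-like clusters, the one with the highest *Zeb2* included. In 4 GC-like clusters, 1 of set 1 and 3 of set 2, fewer than 3 GC markers were up and the name rests on the markers of a GC subtype. Values without clusters that lack a leading GC marker are given where they move a result. The markers of other classes in GC-like cells summed to between 0.129 and 0.197 UMIs per 10000 for the 10 myeloid markers over the 3 sets, beside at least 185 in myeloid-like cells, and to between 0.540 and 0.936 for the 8 stroma markers. The sums were higher for the 5 theca markers, at 8.19, 6.24 and 6.11 beside 79.7, 75.8 and 34.2 in theca-like cells, and for the 5 luteal markers, at 4.05, 4.71 and 12.4 beside 30.7, 37.1 and 60.5 in luteal-like cells. Their part in the results was not tested. None of the markers of these 4 lists was at 0 in GC-like cells of any set.

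*Zeb2* was far higher in the GC-like cells of set 2 than in those of the other sets. It stood at 2.29 UMIs per 10000 in set 1 (2.24 to 2.35), 7.48 in set 2 (7.39 to 7.57) and 1.77 in set 3 (1.73 to 1.81). These are 6972, 27404 and 7062 UMIs, and the intervals do not overlap. The set 2 level was 3.27 times that of set 1 (3.18 to 3.35) and 4.22 times that of set 3 (4.11 to 4.34), which is the pattern *Zeb2* was picked on. With the barcode sets clustered together, which left 1347 GC-like cells in set 3, the second ratio was 8.02, and with clusters that lack a leading GC marker left out it was 7.23. For set 3 over set 1 the ratio was 0.773 (0.748 to 0.799), and it was 0.430 with the sets clustered together, 0.621 with a per-cell marker gate and 0.471 without clusters that lack a leading GC marker.

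These ratios sit on a background of many differences between sets. Of 8793 genes with a level of at least 0.1 in either set, 4.97% were at least 2-fold higher in set 2 than in set 1 and 11.5% at least 2-fold lower. Against set 3 the shares were 6.89% higher and 15% lower, and 2.35% of genes were at least 2-fold higher in set 2 than in both other sets. The median gene tested was at -0.37 on the log2 scale for set 2 over set 1 and at -0.28 for set 2 over set 3. There were 219 genes with a larger ratio of set 2 to set 1 than *Zeb2*, and among the 293 genes at 5 or more UMIs per 10000 in set 2, 27 were at least 2-fold higher than in both other sets. Of the members, 3 reached the level of 0.1 for the comparison with set 1 and 4 for that with set 3. *Zeb2* alone of these was at least 2-fold higher, which is what it was picked on, and none was at least 2-fold lower.

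**Figure D1:**
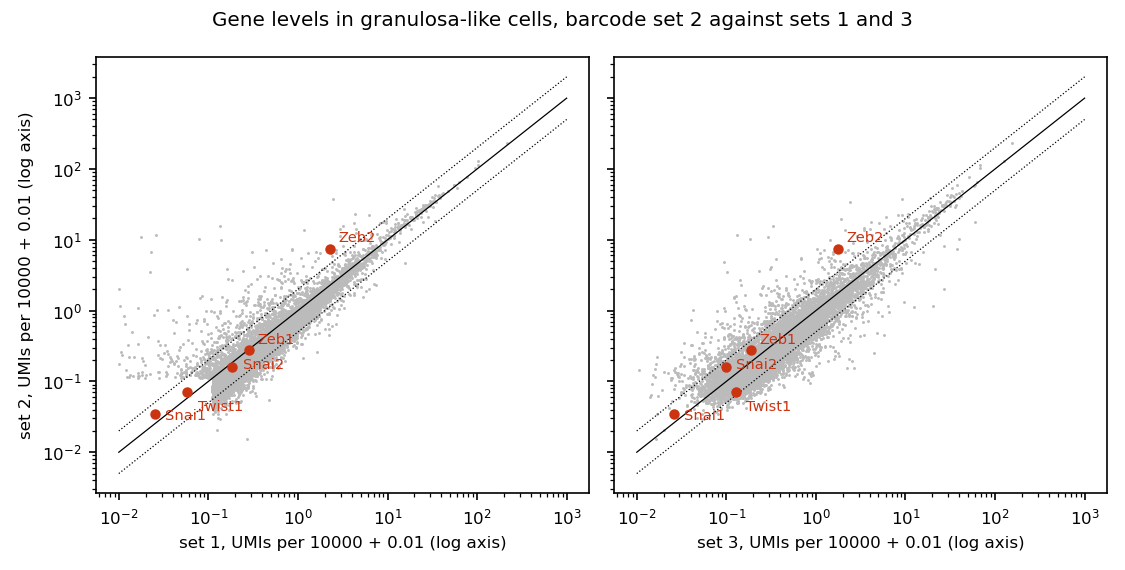
Levels of 8793 genes in granulosa-like cells of barcode set 2 (vertical axis) against set 1 (left) and set 3 (right), in UMIs per 10000 plus 0.01 on log axes, with genes at 0.1 or more in set 1 or 2 in grey, the 5 members in red and dotted lines at a 2-fold difference. Zeb2 lies above the upper dotted line in both panels and no other member does.

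Cells with a *Zeb2* UMI showed the same order. Unthinned, 63.2%, 84.5% and 60.5% of GC-like cells had one in sets 1, 2 and 3, at median depths of 5731, 6726 and 6564 UMIs. When each cell was thinned to 3000 UMIs, with 228, 131 and 233 shallower cells left out, the shares were 43.5% in set 1 (42.0 to 45.1), 72.5% in set 2 (71.2 to 73.8) and 36.9% in set 3 (35.5 to 38.3). The class with the lowest *Zeb2* level, the endothelial-like cells, gave 17.7%, 21.2% and 16.1% after thinning, with median depths of 5325, 5159 and 4789 UMIs. Cells with 3 or more thinned *Zeb2* UMIs made up 38.7% of the GC-like cells of set 2, 5.36% of those of set 1 and 2.76% of those of set 3. GC-like cells supplied 72.4% of all *Zeb2* UMIs of set 2, beside 32.7% in set 1 and 36.2% in set 3. They were 47.9% of the cells of set 2, 41.4% of those of set 1 and 44.7% of those of set 3. The high share in set 2 in part restates the level *Zeb2* was picked on.

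The cells with high *Zeb2* in set 2 were the antral mural-like ones. Mural GCs line the wall of the antral follicle, and they make aromatase, encoded by *Cyp19a1*, and with maturity the LH receptor, encoded by *Lhcgr*. Both genes are among the markers that named the antral mural-like clusters, so their levels there do not bear out the name. *Cyp19a1* was at 3.18 to 9.27 UMIs per 10000 in the 5 antral mural-like clusters of set 2, beside 0.466 in the atretic-like one. *Lhcgr* was at 0.118 and 0.259 in 2 of these 5 clusters, of 662 and 674 cells, and at 0.508 to 2.26 in the other 3, beside 0.0595 in the atretic-like and 0.0653 to 0.0721 in the preantral-like clusters of set 2. Antral mural-like cells were at 10.3 UMIs of *Zeb2* per 10000 in set 2 (10.2 to 10.4, 3363 cells) and at 2.90 in set 1 (2.82 to 2.99, 2025 cells). Preantral-like cells are named from *Kctd14*, *Igfbp5*, *Gatm*, *Wt1* and *Slc18a2* alone, and the stage of their follicles was not observed. Their *Zeb2* was at 0.810 in set 1 (0.730 to 0.896), 1.19 in set 2 (1.12 to 1.27) and 0.870 in set 3 (0.814 to 0.929). The atretic-like cells were at 1.99, 2.29 and 1.73 in sets 1, 2 and 3, which lies between the other subtypes in sets 1 and 2. *Inha* was at 5.46 in the atretic-like cluster of set 2, of 617 cells, below 12.3 in theca-like cells of that set. In set 1 it was at 33.4 in an atretic-like cluster of 1247 cells and at 3.96 in one of 468 cells. The GC name of the clusters low in *Inha* is thus uncertain.

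The ratio of antral mural-like to preantral-like cells was thus 3.59 in set 1 (3.23 to 3.995) and 8.63 in set 2 (8.09 to 9.22). Antral mural-like cells hold 25576 of the 27404 *Zeb2* UMIs of the GC-like cells of set 2, so the larger ratio there restates the level *Zeb2* was picked on. Clusters are groups made from the same cells, so these ratios are a description. Of the genes tested, 10.1% in set 1 and 9.14% in set 2 were at least 2-fold higher in the antral mural-like cells of that pair, while 7.65% and 19.5% were at least 2-fold lower. Within a subtype, set 2 over set 1 came to 3.55 in antral mural-like (3.44 to 3.66), 1.47 in preantral-like (1.31 to 1.66) and 1.15 in atretic-like cells (1.06 to 1.25). These ratios come from the comparison *Zeb2* was picked on and support nothing further. The subtypes do not hold matching clusters in the sets, however. The antral mural-like cluster of 662 cells in set 2 shares *Rgs13*, *Tex14*, *Ntng1* and *Mpped2* among its leading genes with the atretic-like cluster of 1247 cells in set 1, and *Zeb2* was at 5.62 and 1.84 in these clusters. The set 3 cluster of 2080 cells shares *Npy*, *Comp* and *Sult1e1* among its leading genes with the set 2 cluster of 1120 cells. *Zeb2* was at 2.14 and 13.2 in these. A mitotic cluster of 293 cells in set 1, led by *Ooep* and *Dppa3* with *Inha* at 31.3, was left unnamed. Its *Zeb2* was at 1.32 (1.20 to 1.44), and the preantral-like level of set 1 leaves it out. The preantral-like cluster of 135 cells in set 2, which shares *Slc18a2* and *Cenpf* among its leading genes, was at 1.20.

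Single clusters followed the same order of subtypes. The 5 antral mural-like clusters of set 2 ran from 5.62 to 13.2 UMIs of *Zeb2* per 10000, and its 3 preantral-like clusters from 1.12 to 1.31. The highest, of 1120 cells, was led by *Comp*, *Npy* and *Tnfsf11*, and a mitotic cluster of 423 cells was at 10.4. In set 1 the 3 antral mural-like clusters ran from 2.55 to 3.16, and the mitotic one among them was at 2.76. In set 3 the 3 clusters without a subtype ran from 1.75 to 2.36, and the 2 preantral-like clusters were at 0.836 and 0.922. No GC-like cluster of set 1 or set 3 reached the lowest antral mural-like cluster of set 2.

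**Figure D2:**
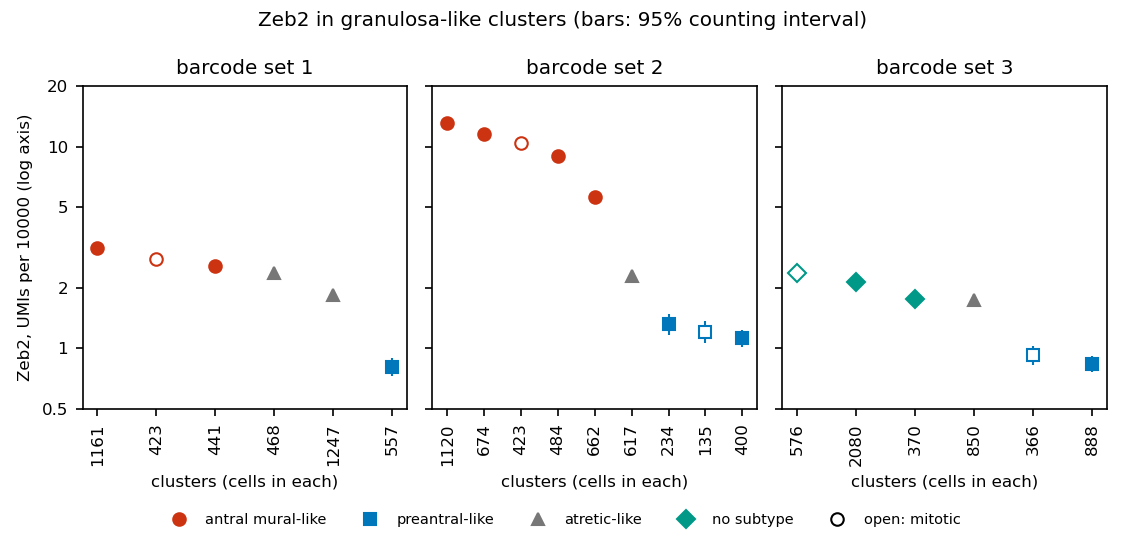
Zeb2 level in each granulosa-like cluster, in UMIs per 10000 on a log axis, with 95% counting intervals, by barcode set. Symbols give the subtype, open symbols mark mitotic clusters and the labels under the axis give the cells in each cluster. The 5 antral mural-like clusters of set 2 lie at 5.62 to 13.2, above all other clusters drawn.

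The clusters with high *Zeb2* in set 2 also held transcripts of the LH response, a list of 7 genes, and so did clusters with lower *Zeb2*. *Areg* and *Ereg*, which encode the EGF-like growth factors that relay the LH signal inside the follicle, were at 11.5 and 10.8 UMIs per 10000 in GC-like cells of set 2, beside 0.0161 and 0.00789 in set 1 and 0.121 and 0.279 in set 3. *Ptgs2*, the prostaglandin synthase needed for ovulation, was at 1.08 in set 2 and at 0.00625 and 0.125 in sets 1 and 3. *Pgr*, the progesterone receptor, was at 0.851, 0.0145 and 0.128 in the same order. In set 2 over set 1, 6 of the 7 LH response genes tested were at least 2-fold higher and none lower, and over set 3, 5 were higher and none lower, beside 4.97% and 6.89% of all genes higher and 11.5% and 15% lower. Among the antral mural-like clusters of set 2 the cluster with the highest *Zeb2* had 32.9 UMIs of *Areg* per 10000 and that with the lowest *Zeb2* had 1.32. A cluster of 674 cells, led by *Srxn1* and *Gclc*, had *Zeb2* at 11.5 with *Areg* at 6.54, so the clusters had a different order by *Areg* than by *Zeb2*. A stroma-like cluster of 269 cells in set 2 had *Areg* at 18.65 with *Zeb2* at 2.40. The part of the LH response transcripts in the *Zeb2* level was not tested.

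Of 10 genes of dissociation and stress, 3 were at least 2-fold higher in GC-like cells of set 2 than of set 1 and 1 was higher than in set 3, with none lower, beside 4.97% and 6.89% of all genes higher, so the count over set 3 is near that of all genes. Of these, *Junb* differed from both sets, with a level of 22.7 in set 2 against 6.26 and 8.18 in sets 1 and 3, whereas *Jun*, which encodes another subunit of AP-1, was at 23.5 against 16.7 and 22.4 and under 2-fold apart in both comparisons. The part of these genes in the *Zeb2* level was not tested.

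*Zeb2os*, the antisense gene within *Zeb2*, moved the same way. It was at 0.0904 UMIs per 10000 in GC-like cells of set 1 (0.08004 to 0.102), 0.160 in set 2 (0.147 to 0.173) and 0.0524 in set 3 (0.0456 to 0.06005). The set 2 level was 1.77 times that of set 1 (1.53 to 2.05) and 3.05 times that of set 3 (2.60 to 3.59). *Gtdc1*, a neighbouring gene on the same strand as *Zeb2*, was at 0.0796, 0.197 and 0.216 in sets 1, 2 and 3, so it was no lower in set 3 than in set 2. The sources used here do not say whether counting used the strand. It is thus not known whether reads of *Zeb2* and *Zeb2os* were kept apart where the genes overlap.

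Outside the GC-like class the *Zeb2* level differed little between sets when those cells were pooled. They stood at 2.82, 2.87 and 2.71 UMIs per 10000 in sets 1, 2 and 3. GC-like cells were at 0.813 times that level in set 1 (0.790 to 0.837), 2.60 times in set 2 (2.55 to 2.66) and 0.655 times in set 3 (0.636 to 0.674), the last of which was 0.386 with the sets clustered together. In sets 1 and 3 the myeloid-like cells were highest, at 6.08 (5.49 to 6.71) and 5.01 (4.52 to 5.53), and endothelial-like cells lowest, at 0.744 (0.660 to 0.835) and 0.786 (0.685 to 0.898). In set 2 GC-like cells were highest, followed by theca-like cells at 5.68 (5.49 to 5.88) and myeloid-like cells at 5.11 (4.58 to 5.69), which did not differ beyond counting error.

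Theca-like cells also had more *Zeb2* in set 2 than in both other sets. Theca cells make the androgens that GCs convert to oestrogen, and 3 of the 4 theca-like clusters were led by *Cyp17a1*, which encodes an enzyme of androgen synthesis. *Zeb2* was at 3.06 in set 1 (2.98 to 3.15), 5.68 in set 2 and 2.75 in set 3 (2.63 to 2.87). The ratio was 1.86 for set 2 over set 1 (1.77 to 1.94) and 2.07 for set 2 over set 3 (1.96 to 2.19), where 6.45% and 8.34% of genes were at least 2-fold higher. The second ratio was 1.99, under 2-fold, with the sets clustered together. In the same 2 comparisons *Zeb2* was also higher beyond counting error in luteal-like cells, by 1.37 (1.25 to 1.51) and 1.46 times (1.21 to 1.76). In endothelial-like cells the ratios were 1.35 (1.16 to 1.56) and 1.27 (1.08 to 1.502), but they fell to 1.051 from the log values and to 1.063 with a per-cell marker gate. The summed GC markers in theca-like cells were 13.7, 17.4 and 12.4 in sets 1, 2 and 3, and *Areg* was at 0.0825, 13.8 and 0.203, so in set 2 *Areg* was no lower in these cells than in GC-like cells. The part of GC transcripts in the theca-like level was not tested.

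In stroma-like cells set 2 was the lowest of the 3 sets. *Zeb2* was at 3.64 in set 1 (3.55 to 3.73), 2.50 in set 2 (2.42 to 2.57) and 2.91 in set 3 (2.85 to 2.97). The set 2 level was 0.686 times that of set 1 (0.660 to 0.713), so the lowest of the 3 values was in the set in which GC-like cells were highest. The highest stroma-like cluster, at 5.86, belonged to set 1, held 798 cells and had as leading genes *Mfap5*, *Mfap4* and *Clec3b*, while a cluster of 1082 cells in set 2 with *Mfap4* and *Clec3b* as its leading genes was at 2.96. The smooth muscle-like cells were at 3.16, 2.97 and 3.47, and the luteal-like cells at 1.68, 2.30 and 1.58, in sets 1, 2 and 3.

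**Figure D3:**
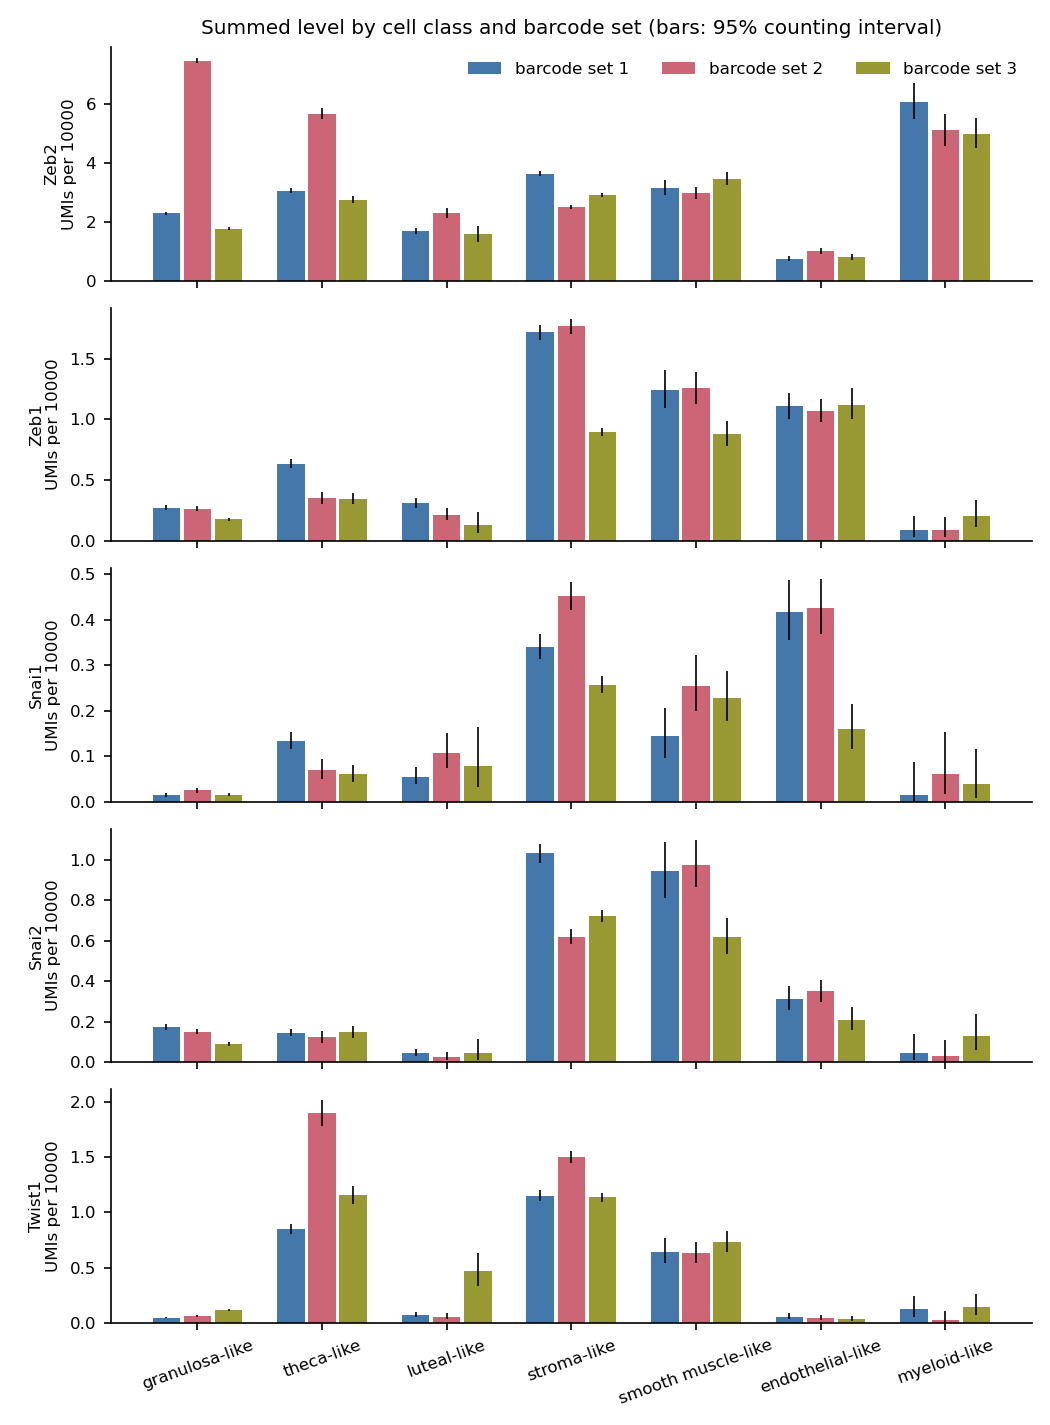
Summed level of Zeb2, Zeb1, Snai1, Snai2 and Twist1 in 7 cell classes, in UMIs per 10000 with 95% counting intervals, for barcode sets 1, 2 and 3. Each panel has its own axis from 0. Zeb2 in granulosa-like cells of set 2 reaches 7.48, above every other bar in its panel.

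*Zeb1*, the close relative of *Zeb2*, did not share its pattern. GC-like cells were at 0.275 in set 1 (0.257 to 0.294), 0.268 in set 2 (0.252 to 0.285) and 0.179 in set 3 (0.166 to 0.193). Set 2 over set 1 was 0.974 (0.888 to 1.07), so any rise above 1.07-fold lies outside the counting interval. The ratio of set 3 to set 1 was 0.650 (0.588 to 0.719). It became 1.31 once the clusters without a leading GC marker were left out and 1.39 when the sets were clustered together. Its direction thus depends on which cells of the sets count as GC-like. Within set 3 the cells without a subtype were at 0.0688 (0.0589 to 0.07998) and the preantral-like cells at 0.408 (0.370 to 0.449).

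Between the pooled antral mural-like and preantral-like cells *Zeb1* and *Zeb2* differed in opposite directions. *Zeb1* in antral mural-like cells was 0.482 times its preantral-like level in set 1 (0.400 to 0.581) and 0.5999 times in set 2 (0.519 to 0.695), where *Zeb2* was 3.59 and 8.63 times as high. The preantral-like levels of *Zeb1* were 0.401, 0.360 and 0.408 in sets 1, 2 and 3, and none of these differed from another beyond counting error. The other GC-like cells did not follow this order. In set 2 *Zeb1* was at 0.414 in the atretic-like cells (0.352 to 0.484), and at 0.341 and 0.348 in 2 of the 5 antral mural-like clusters, above 0.290 and 0.299 in 2 of the 3 preantral-like clusters. At the 2-fold mark only the set 1 difference between the pooled cells counted, beside 7.65% of all genes in that direction.

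The highest *Zeb1* levels were in mesenchymal and endothelial classes. Stroma-like cells were at 1.72 in set 1 (1.66 to 1.78), 1.77 in set 2 (1.71 to 1.83) and 0.896 in set 3 (0.862 to 0.931), or 6.24, 6.59 and 5.01 times the GC-like level. Set 3 over set 1 was 0.522 in stroma-like cells (0.495 to 0.550) and 0.711 in smooth muscle-like cells (0.597 to 0.847), whereas in endothelial-like cells it was 1.01 (0.872 to 1.18), around levels of 1.11, 1.07 and 1.12. *Zeb1* was thus lower in set 3 in both of these mesenchymal classes and within counting error of set 1 in the endothelial one. The myeloid-like cells, high in *Zeb2*, had 6, 6 and 16 UMIs of *Zeb1* in all, which gives 0.0942, 0.0902 and 0.210. *Zeb1* lies on chromosome 18 from 5591860 to 5775467 on the plus strand.

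*Snai1* was barely detected in GC-like cells. Its 46, 92 and 63 UMIs there gave 0.0151 (0.0111 to 0.0202), 0.0251 (0.0203 to 0.0308) and 0.0158 (0.0121 to 0.0202) in sets 1, 2 and 3, below the minimum of 0.1 for a fold call in every set. Set 2 was 1.66 times set 1 (1.15 to 2.42) and 1.59 times set 3 (1.14 to 2.23), the direction of *Zeb2* in these cells. After thinning, 0.442%, 0.671% and 0.449% of GC-like cells had a *Snai1* UMI, beside 14.1%, 13.1% and 7.31% of endothelial-like cells. Stroma-like cells were at 0.341, 0.452 and 0.258, or 22.5, 18.0 and 16.3 times the GC-like level. In endothelial-like cells the level was 0.417 in set 1 (0.355 to 0.487), 0.426 in set 2 (0.370 to 0.489) and 0.159 in set 3 (0.116 to 0.214), and set 3 over set 1 was 0.382 (0.267 to 0.536). Theca-like cells were at 0.133, 0.0696 and 0.0608, and set 2 over set 1 was 0.522 there (0.363 to 0.734) and 0.319 after thinning, the opposite of *Zeb2* in the same cells. *Snai1* lies on chromosome 2 from 167538195 to 167542814.

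*Snai2* was again highest outside the GCs. Stroma-like cells were at 1.03 in set 1 (0.984 to 1.08), 0.619 in set 2 (0.584 to 0.656) and 0.722 in set 3 (0.692 to 0.754), and smooth muscle-like cells at 0.942, 0.975 and 0.618. In stroma-like cells set 2 over set 1 was 0.6003 (0.557 to 0.647), in the direction of *Zeb2* in these cells. GC-like cells were at 0.176 (0.161 to 0.191), 0.152 (0.140 to 0.165) and 0.0893 (0.0803 to 0.0991). Their set 2 level was 0.866 times that of set 1 (0.768 to 0.977) and 1.70 times that of set 3 (1.49 to 1.95), neither of which reached 2-fold. The second was 2.18 after thinning, which passes 2-fold, 1.06 with the sets clustered together and 1.25 without clusters that lack a leading GC marker. Without the clusters that lack a leading GC marker, set 2 over set 1 was 1.01. *Snai2* lies on chromosome 16 from 14705852 to 14709385.

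*Twist1* was the only bHLH factor among the 5, and its levels were highest in theca-like and stroma-like cells, followed by smooth muscle-like cells at 0.645, 0.635 and 0.729 in sets 1, 2 and 3. The smooth muscle-like cluster led by *Rgs5* was at 1.05 (0.819 to 1.33) in set 1 and at 1.06 (0.904 to 1.23) in set 3, which is within the range of the stroma-like clusters of these sets. In set 1 the theca-like clusters were at 0.791 (0.717 to 0.871) and 0.875 (0.820 to 0.933), with intervals that overlap that of the *Rgs5*-led cluster. Theca-like cells were at 0.848 in set 1 (0.803 to 0.894), 1.90 in set 2 (1.79 to 2.01) and 1.16 in set 3 (1.08 to 1.24). The ratio of 2.24 for set 2 over set 1 (2.07 to 2.43) made it the 1 member at least 2-fold higher in that comparison, beside 6.45% of genes. It fell under 2-fold after thinning, at 1.99, from the log values, at 1.68, and with a per-cell marker gate, at 1.59. Set 2 over set 3 was 1.64 (1.499 to 1.80). After thinning, 22.6%, 33.2% and 24.2% of theca-like cells had a *Twist1* UMI. Stroma-like cells were at 1.15 (1.10 to 1.20), 1.503 (1.45 to 1.56) and 1.14 (1.10 to 1.18), so set 2 was highest in both classes, and in set 3 the 2 classes did not differ beyond counting error.

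In GC-like cells *Twist1* was at 0.0483 in set 1 (0.0408 to 0.0568), 0.0601 in set 2 (0.0524 to 0.0686) and 0.117 in set 3 (0.106 to 0.128). It was the only member at least 2-fold higher in set 3 than in set 1, at 2.41 times (2.001 to 2.93), beside 7.27% of genes higher and 9.85% lower. The difference sat in the cells without a subtype, at 0.161 (0.145 to 0.177), while preantral-like and atretic-like cells of set 3 were at 0.0382 and 0.0585. With the clusters that lack a leading GC marker left out, set 3 over set 1 was 0.984, and with the sets clustered together it was 0.881. *Twist1* lies on chromosome 12 from 33957671 to 33959829.

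**Figure D4:**
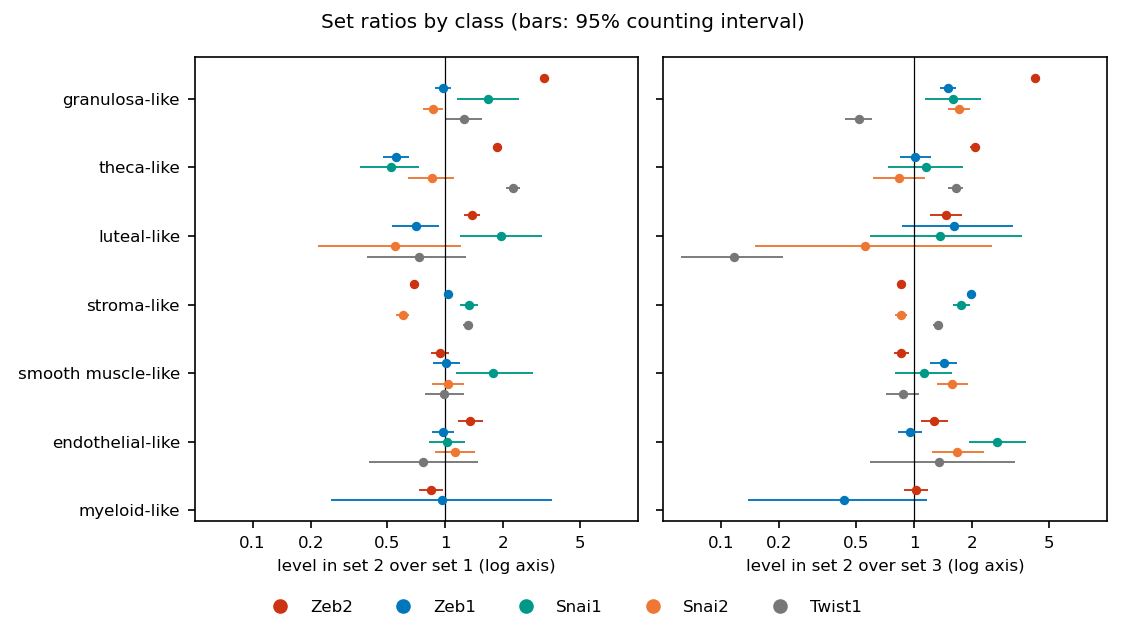
Level in barcode set 2 over set 1 (left) and over set 3 (right) for each member in 7 cell classes, on a log axis with 95% counting intervals, drawn where both groups hold more than 3 UMIs. Zeb2 is at 3.27 and 4.22 in granulosa-like and at 1.86 and 2.07 in theca-like cells, and at 0.686 and 0.858 in stroma-like cells.

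Smooth muscle-like cells came as 2 clusters in every set, which differed in the members they held. One was led by *Rgs5*, a gene of pericytes and vascular smooth muscle, and had *Notch3* among its leading genes, and the other was led by *Actg2*, a gene of smooth muscle outside vessels, and *Myh11*. *Zeb2* was at 5.87, 5.05 and 5.47 in the *Rgs5*-led clusters of sets 1, 2 and 3 and at 1.83, 1.99 and 1.49 in the *Actg2*-led ones. The ratio was 3.21 (2.73 to 3.78), 2.54 (2.22 to 2.92) and 3.68 (3.18 to 4.27). *Zeb2* was thus higher beyond counting error in the *Rgs5*-led cluster of 3 of 3 sets.

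*Twist1* and *Snai1* leaned the same way and *Zeb1* and *Snai2* the other. The ratio of the *Rgs5*-led to the *Actg2*-led cluster for *Twist1* was 2.36 (1.65 to 3.39), 1.57 (1.15 to 2.13) and 2.62 (1.96 to 3.56) in sets 1, 2 and 3. *Snai1*, with 7 to 63 UMIs in a cluster, gave 6.37 (2.63 to 17.7), 2.25 (1.38 to 3.67) and 7.08 (3.503 to 16.2). For *Snai2* the ratio was 0.804 (0.576 to 1.11), 0.251 (0.164 to 0.369) and 0.439 (0.318 to 0.5999), below 1 beyond counting error in sets 2 and 3. *Zeb1* gave 0.683 (0.505 to 0.913), 0.768 (0.6003 to 0.976) and 0.827 (0.647 to 1.05).

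**Figure D5:**
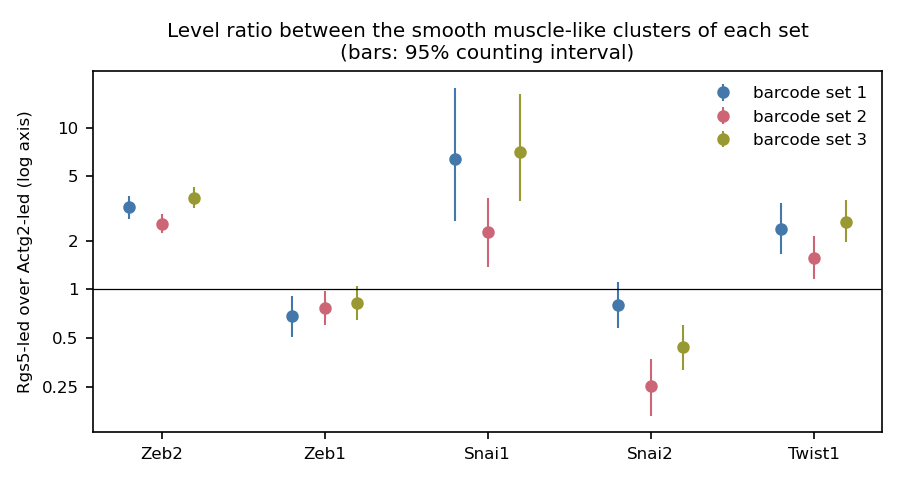
Level in the Rgs5-led over the Actg2-led smooth muscle-like cluster for each member and barcode set, on a log axis with 95% counting intervals. Zeb2 lies between 2.54 and 3.68 in the 3 sets, and Snai2 at 0.251 to 0.804.

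Over 21 groups of cells, 7 classes in each of 3 sets, the level of *Zeb2* was compared with that of 6190 other genes at 0.5 UMIs per 10000 or more in at least 1 group. The groups share libraries and cell classes, so the correlations of log2(level + 0.1) are descriptions. They include the GC-like level of set 2 that *Zeb2* was picked on. Genes found to be like *Zeb2* are thus partly chosen for being high there. The 5 genes most like *Zeb2* were *Chmp4b* (Pearson r = 0.783), *Fos* (0.773), *Zeb2os* (0.757), *Cebpa* (0.753) and *Pim1* (0.744). *Cebpa*, a factor of the LH response in GCs and of myeloid cells, was at 0.248, 1.96 and 0.453 in GC-like cells of sets 1, 2 and 3 and at 1.16, 1.86 and 0.361 in theca-like cells, high in set 2 in both. *Pim1*, a kinase gene, was at 0.486, 1.33 and 0.646 in GC-like cells.

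The other members had nearer matches. *Zeb1* was most like *Nid1* (r = 0.940), *Fbxl7* (0.933) and *Tmem100* (0.927), and *Snai2* was most like *Nfix* (0.957), *Rnf122* (0.935) and *Nr2f2* (0.931). The matches of *Twist1* were *Col6a2* (0.923), *Hs6st2* (0.923) and *Col3a1* (0.916), 2 of them collagen genes, and those of *Snai1* were *Ier5l* (0.926), *Tmem204* (0.897) and *Nid1* (0.896). Among the members themselves, *Zeb1* went with *Snai2* (0.885) and *Snai1* (0.871), whereas *Zeb2* gave -0.35 with *Zeb1*, -0.43 with *Snai1*, -0.05 with *Snai2* and 0.306 with *Twist1*.

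The other genes of the pathway are given as counts at the 2-fold mark in GC-like cells of set 2, first over set 1, where 4.97% of all genes were higher and 11.5% lower, and then over set 3, where these shares were 6.89% and 15%. Of 14 other mesenchymal transcription factors 4 were tested and none passed in either comparison, and *Sox4*, a factor of progenitor cells, was at 8.26, 7.78 and 4.55 in sets 1, 2 and 3. Of 14 factors of the epithelial state that oppose them only *Klf4* was tested, at 0.866, 2.90 and 1.81, which is higher in set 2 than in set 1 and under 2-fold over set 3. Of 4 Id genes, whose products keep bHLH factors from DNA, 2 were higher in each comparison and none lower. *Id4* was at 0.0460, 0.135 and 0.0326 and so higher than in both sets, and *Id3* was at 10.1, 11.5 and 4.19.

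The counts for partners and regulators of the proteins read against the same shares of all genes. Of 16 corepressors and cofactors, all tested, none was higher and 1 and 2 were lower, and *Rbbp4*, a histone-binding subunit of such complexes, was at 2.94, 2.40 and 2.44. Of 12 tested regulators of protein stability 1 was higher in each comparison, *Siah2*, a ubiquitin ligase gene, at 0.223, 1.36 and 0.347 in sets 1, 2 and 3, and 0 and 1 were lower. *Gsk3b*, a kinase gene with the highest level of this list, was at 2.75, 2.03 and 2.16. Of 12 tested genes of TGF-beta input, 2 were higher over set 1 and 4 over set 3, and none was lower. *Smad7*, at 1.28, 2.73 and 0.993, and *Skil*, at 0.896, 2.43 and 0.981, both encode inhibitors of the SMAD proteins and were at least 2-fold higher in set 2 than in both sets, and *Tgif1*, a corepressor of the same pathway, was at 2.08, 3.67 and 0.725.

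The epithelial genes that these factors are known to repress showed no common direction between sets. Of 23 such genes 5 were tested in set 2 over set 1 and none passed, and in set 2 over set 3, 1 of 7 was higher and 2 were lower. *Cdh1*, named here after its values were seen because it is the classic target, had 0, 1 and 0 UMIs in all GC-like cells of sets 1, 2 and 3. *Dsp*, which encodes the desmosomal protein desmoplakin, was at 0.656, 0.759 and 0.317. The median of those tested was 0.11 on the log2 scale for set 2 over set 1, beside -0.37 for all genes tested.

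Between subtypes the counts were less even. Of the 10 epithelial targets tested in set 1, none was at least 2-fold higher and 9 were at least 2-fold lower in antral mural-like cells when set against preantral-like ones, with a median of -1.82 on the log2 scale beside 0.15 over all genes. In set 2 none was higher and 4 of 8 were lower, with a median of -0.91 beside -0.32. Of all genes, 7.65% were lower in this pair in set 1 and 19.5% in set 2. The levels of 6 epithelial marker genes summed to 0.9625 in preantral-like and 0.0199 in antral mural-like cells of set 1. In set 2 these sums were 0.0948 and 0.0153, and preantral-like cells of set 3 were at 0.162. The part of transcripts from other epithelial cells in the counts of targets was not tested. *Dsp* was at 0.389 in antral mural-like and 1.43 in preantral-like cells of set 1, a ratio of 0.272 (0.244 to 0.304), and at 0.596 and 1.52 in set 2, a ratio of 0.392 (0.363 to 0.423). In GC-like cells as a whole, none of the 10 mesenchymal genes tested of 18 passed in set 2 over set 1, and 4 of 12 were lower over set 3, beside 15% of all genes. Between the subtypes, 2 of 11 tested were higher and 1 lower in set 1, and 1 of 10 was higher and none lower in set 2, where 10.1% and 9.14% of all genes were higher. *Vim*, which encodes vimentin, was higher in antral mural-like cells of both sets, at 2.83 times (2.55 to 3.15) in set 1 and 2.33 times (2.17 to 2.50) in set 2, while between sets it was highest in set 3, at 2.80, 2.70 and 8.28 in GC-like cells.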

How the data were processed

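The deposited table was made by the authors from 10x Genomics libraries. The submitters' processing notes name Cell Ranger, Seurat and build mm10, without versions, and the strand setting of counting is not given in the sources used here. The values are natural log values, which the authors computed as the log of 1 plus UMIs per 10000 of the cell. The deposited log values were worked back to UMI counts, of which 100% came out whole within 0.01 UMI, 240030587 UMIs in all, with at least 500 in every cell.

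The cells of each barcode set were clustered with scikit-learn 1.9.0 and python-igraph 0.11.9 (2000 variable genes, 30 components, 15 neighbours, Louvain resolution 1). The 140 members and list genes found in the table were left out of the clustering. A cluster was named from at least 3 of a class's markers or, for granulosa-like clusters, at least 3 markers of a granulosa subtype, and otherwise left unnamed. Scrublet, run in scanpy 1.11.5, called 43 cells (0.135%), too few to count as a working call. No doublets were therefore removed, and an alternative left out 2454 cells by score. Levels are summed UMIs per 10000, with exact Poisson 95% intervals, exact binomial (Clopper-Pearson) intervals for shares and ratios, and no test, since each time point has 1 library. A fold call needs 2-fold and a level of at least 0.1 in either group. Gene positions are from GENCODE M21, on GRCm38. The named genes are the 5 members, *Zeb2os*, *Cdh1*, *Epcam*, *Ocln*, and marker or leading genes of clusters. They also include all genes of the LH response list, and list genes at least 2-fold higher or lower in set 2 than in both other sets. Added to these are 1 gene of each list by level and the genes most like each member. The members and lists were chosen with earlier results of these data known.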

Additional observations from a re-analysis of the deposited data

Results flagged for a closer look

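Several members had ratios between barcode sets that went in opposite directions in different cell classes, each beyond counting error. With 1 library per time point the difference between classes was not tested. *Zeb2* in set 2 over set 1 was 3.265 in granulosa-like cells and 0.686 in stroma-like cells, and in set 2 over set 3 it was 4.223 in granulosa-like and 0.8558 in smooth muscle-like cells, the latter of which was 1.01 at Louvain resolution 0.5. The granulosa-like values are those *Zeb2* was picked on.

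*Snai1* in set 2 over set 1 was 1.954 in luteal-like cells, from 34 and 38 UMIs, and 0.5217 in theca-like cells. In set 3 over set 1 it was 1.588 in smooth muscle-like and 0.3821 in endothelial-like cells, and the first of these changed direction with the clustering. *Snai2* in set 2 over set 3 was 1.703 in granulosa-like and 0.857 in stroma-like cells. *Twist1* in set 2 over set 3 was 1.642 in theca-like and 0.1155 in luteal-like cells, the latter from 17 and 41 UMIs and between 0.1029 and 0.6178 under the alternatives.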

How the results depend on the processing

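No paired analysis was possible because each time point has 1 library. The *Zeb2* ratios in granulosa-like cells stayed above 1 under all 14 alternatives each. Set 2 over set 1 (3.265) was 3.548 as a mean over cells, 3.421 from the log values, 3.355 with the 50 most abundant genes left out of the totals, 3.406 without the top 2% of cells by UMIs, 3.55 after thinning, 3.414 and 3.439 at Louvain resolutions 0.5 and 2, 3.451 with the sets clustered together, 3.634 with a per-cell marker gate and 3.358 without cells holding a myeloid marker UMI. Set 2 over set 3 (4.223) was 4.588 as a mean over cells, 4.43 without the abundant genes, 4.378 without the top cells, 4.635 after thinning, 4.451 at resolution 2, 8.018 with the sets clustered together and 5.853 with the gate. In 2 alternatives chosen after seeing the data, leaving out clusters with fewer than 3 granulosa markers gave 4.218 and 5.442 for these ratios, and leaving out clusters without a leading granulosa marker gave 3.409 and 7.232.

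The antral mural-like over preantral-like ratio of *Zeb2* in set 1 (3.587) was 4.025 from the log values, 4.225 after thinning, 3.228 at resolution 0.5 and 2.778 with the sets clustered together. In set 2 (8.635) it was 10.4 from the log values, 9.862 without the cells left out by Scrublet score, 9.737 with the sets clustered together, and 7.838 and 7.429 in the 2 added alternatives, in the order above. The 1450 genes at least 2-fold apart between sets 1 and 2 became 449 and 2505 at minimum levels of 0.5 and 0.02, 3714 at 1.5-fold and 2433 without clusters of fewer than 3 granulosa markers. The 215 genes higher in set 2 than in both other sets became 126 at a minimum of 0.5, 406 at 1.5-fold and 363 with the sets clustered together.

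Of 532 values of 38 other ratios, 445 stayed within counting error, 75 moved and 12 changed direction. With the sets clustered together and without clusters lacking a leading granulosa marker, in that order, *Zeb1* in granulosa-like cells was 0.6539 and 0.7077 for set 2 over set 3 and 1.385 and 1.313 for set 3 over set 1, and *Twist1* was 1.577 and 1.373, and 0.8813 and 0.9843. The main ratio of *Zeb1* in granulosa-like cells for set 2 over set 3 was 1.499 (1.36 to 1.653), and *Twist1* was lower in set 2 than in set 3 there. *Snai2* in set 2 over set 1 was 1.014 without clusters lacking a leading marker. In smooth muscle-like cells *Zeb2* in set 2 over set 3 was 1.01 at resolution 0.5, and *Snai1* in set 3 over set 1 was 0.7169 at resolution 0.5 and 0.7773 with the gate. The cause of these changes was not tested. Counts of a few UMIs limit *Snai1* in granulosa-like, luteal-like and myeloid-like cells.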
